A study of Mus musculus with 15 samples.

Results

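Prep 3 is a set of 5 arrays of the mouse cell line MC3T3, 1 for each culture condition of the study, and it is compared here with the 10 arrays of preps 1 and 2. The series holds 15 arrays in all, and the arrays were assigned by the prep number in their titles. MC3T3 clone 1b is an osteoblast-precursor line from mouse calvaria (skull bone), so all arrays come from 1 clone of 1 line, and no primary cells are involved. Each prep was sampled in control medium at day 0, with GP (beta-glycerol phosphate) at day 1 and day 3, and with GP/AA/BMP-2 (GP, ascorbic acid and bone morphogenetic protein 2) at day 1 and day 3. The GP cultures serve as the control of the same day for the cultures that also got ascorbic acid and BMP-2, and those are called treated below. The labels do not say whether a prep is a separate culture, RNA preparation or hybridisation round, and these cannot be told apart. Since prep 3 is 1 prep, every p-value below treats arrays and not preps as the replicates, and none measures how far preps vary in general. In the comparison of prep 3 with preps 1 and 2 pooled, the difference between those 2 preps is part of the spread between arrays. The limma fits that hold the 3 preps apart leave it out.

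Calvarial pre-osteoblasts first divide, then lay down a collagen matrix and then mineralise it. Ascorbic acid is needed to build collagen, glycerol phosphate supplies phosphate, and BMP-2 acts through SMAD proteins on genes such as Id1 and Smad6. Small leucine-rich proteoglycans such as lumican and decorin bind collagen fibrils and are made as the matrix forms. Stromal cells of this kind can also make chemokines, acute-phase proteins and matrix proteases when NF-kB, C/EBP and AP-1 factors are active.

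The arrays of prep 3 stood apart in every culture. Of 7453 probe sets tested (a probe set is the group of oligonucleotides that measures 1 transcript), 2765 differed between prep 3 and preps 1 and 2, which is 37.1% (limma, Benjamini-Hochberg adjusted p under 0.05, day and additions as blocks). Of these, 1228 were higher in prep 3 (16.5% of those tested) and 1537 were lower (20.6%). A change of at least 2-fold was found for 142 higher (1.91%) and 232 lower (3.11%). Prep 3 lay above both other preps in all 5 cultures for 832 probe sets (11.2%) and below both for 909 (12.2%). Against prep 1 alone 2187 probe sets differed (29.3%), and against prep 2 alone 2492 (33.4%); both comparisons use the same prep 3 arrays. Prep 2 against prep 1 gave 57 (0.765%), 11 higher and 46 lower. The split of higher and lower calls depended on the scaling: with each array scaled to a common median it was 2164 higher and 686 lower, and the median log2 difference over all tested probe sets was 0.14 in place of -0.057.

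The first principal component, with 32.7% of the variance, placed the prep 3 arrays between 25.3 and 39.7 and the others between -25.6 and -1.55. The day 0 array of prep 3, from a culture without additions, was the one at 25.3. Arrays of the same culture correlated at 0.944 to 0.964 between preps 1 and 2, and at 0.903 to 0.934 between prep 3 and either of them, across probe sets, which are not independent replicates.

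**Figure D1:**
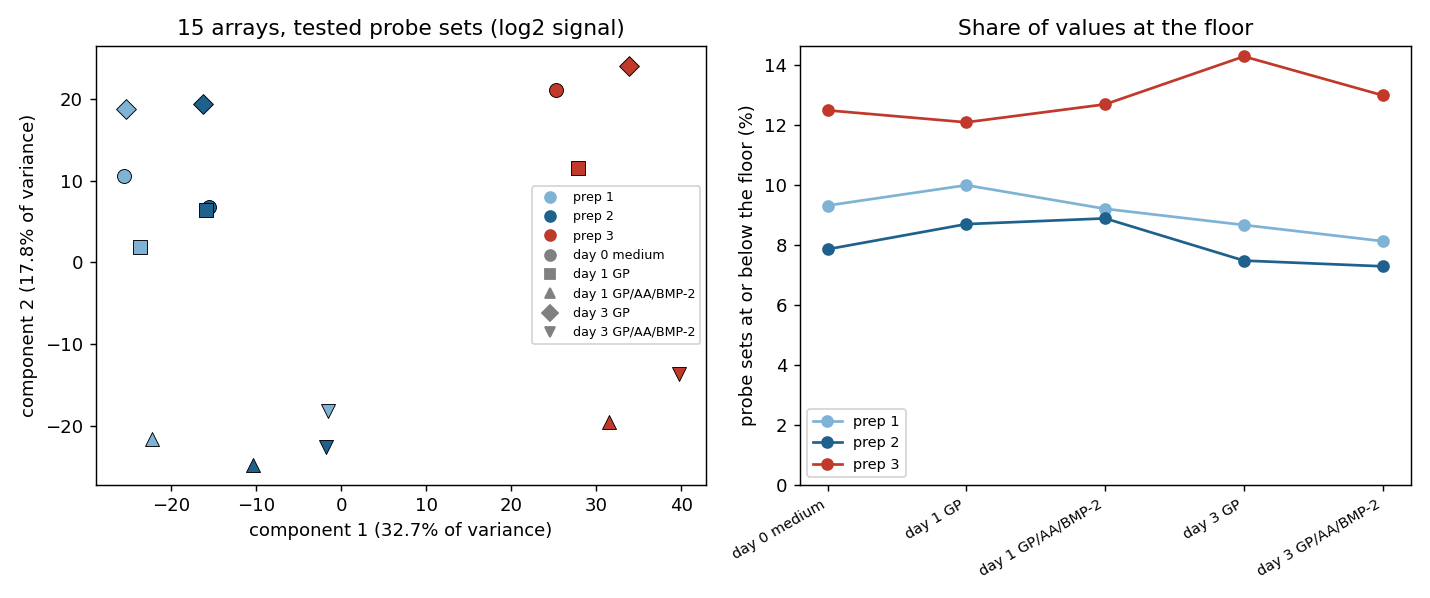
Left, the 15 arrays on the first and second principal components of log2 signal, with colour for the prep and marker shape for the culture. Right, the percent of non-control probe sets at or below the floor of 2.8 on each array, with lines joining the arrays of a prep; prep 3 lies at 12.1 to 14.3% and the others at 7.29 to 10%.

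Measures of the arrays themselves moved with prep 3. The share of probe sets at the floor was 12.9% ± 0.828 (SD, n = 5) in prep 3 and 8.56% ± 0.87 (n = 10) in preps 1 and 2, an exact permutation p of 0.0041, the smallest the 243 arrangements can give. The ratio of 3' to 5' signal of beta-actin, which rises as RNA shortens, was 1.42 ± 0.388 against 1.10 ± 0.0734 (exact permutation p = 0.0082, adjusted over 3 ratios 0.012). For pyruvate carboxylase it was 6.57 ± 3.92 against 2.31 ± 0.63 (exact permutation p = 0.0041, adjusted 0.012), and for Gapdh 1.00 ± 0.116 against 0.911 ± 0.05 (exact permutation p = 0.07, adjusted 0.07). Of the hybridisation controls, CreX (3' probe set) read 4516 in prep 3 and 7785 in preps 1 and 2, while BioB (middle probe set) read 519.9 and 298.9, so the spiked controls did not all move one way. The BioC, BioDn and CreX probe sets other than those for the sense strand all lay below both other preps in all 5 cultures. Of 38 control probe sets with a mean signal of at least 22.3, 22 lay below both other preps in all 5 cultures and 5 above. The sense-strand probe sets of Gapdh (5') read 40.1 to 74.6 in prep 3 and 3.3 to 23.1 elsewhere. The 18S ribosomal RNA probe set (3') read 33.8 to 101.9 and 148.1 to 1090.6. The median log2 difference was -0.29 in the dimmest 10% of tested probe sets and -0.019 in the brightest 10%. The part of these measures in the gene differences below was not tested.

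Several collagen-binding proteoglycans were among the genes with the largest increases. Lumican (Lum), decorin (Dcn), fibromodulin (Fmod) and osteomodulin (Omd) rose, while biglycan (Bgn) fell slightly (7870 against 9110, log2 difference -0.21, limma adjusted p = 0.0291) and osteoglycin (Ogn) did not pass (0.45, 0.0859). In all, 12 of 33 tested genes of the collagens and matrix list were higher and 7 lower, against 17.8% higher and 19.5% lower of all 5643 tested genes. The median log2 difference of that list was 0.31, against -0.035 over all genes. By culture it was 0.2 at day 0, and 0.36 and 0.37 with GP at day 1 and day 3. In the treated cultures of day 1 and day 3 it was 0.054 and -0.15, so the list was not higher in every culture. The signal of Lum in prep 3 was 627.7 at day 0, 854.3 with GP and 978.1 treated at day 1, and 1387.7 with GP and 2289.6 treated at day 3. In preps 1 and 2 it ran from 17.6 over a median of 32.3 to 608. No prep 3 array was as low as any other array, and the log2 difference was 4.54 (SE 0.42, limma adjusted p = 4.11e-06).

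Dcn in prep 3 read 5638.1, 5792.6, 4273, 5915.8 and 5045.7 in the same order of cultures. Preps 1 and 2 gave 64.9 to 4020.3 with a median of 235, again without overlap, and the log2 difference was 4.15 (SE 0.61, limma adjusted p = 0.000181). That difference was 5.79 at day 0 and 1.11 in the treated culture of day 3, where preps 1 and 2 reached 1358.7 and 4020.3 from 64.9 and 160.3 at day 0. Fmod gave 2002.4, 1935.3, 2512.1, 2499.8 and 4443.2 in prep 3 and 40.9 to 3619.9 (median 231) elsewhere. The ranges overlap across cultures, but prep 3 was above both others within each culture (log2 difference 3.19, SE 0.58, limma adjusted p = 0.00083). Omd, a proteoglycan of bone matrix, averaged 85.7 in prep 3 and 34.6 in the others (log2 difference 1.83, SE 0.43, limma adjusted p = 0.00471); with the floor raised to 78.9, the 60th percentile, it was 0.25 with an adjusted p of 0.35. Nephronectin (Npnt), an integrin ligand of the osteoblast matrix, rose by a log2 difference of 2.80 (SE 0.46, limma adjusted p = 0.000429), with 2209.1 to 4231.5 in prep 3 and 87.1 to 4900.4 elsewhere.

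**Figure D2:**
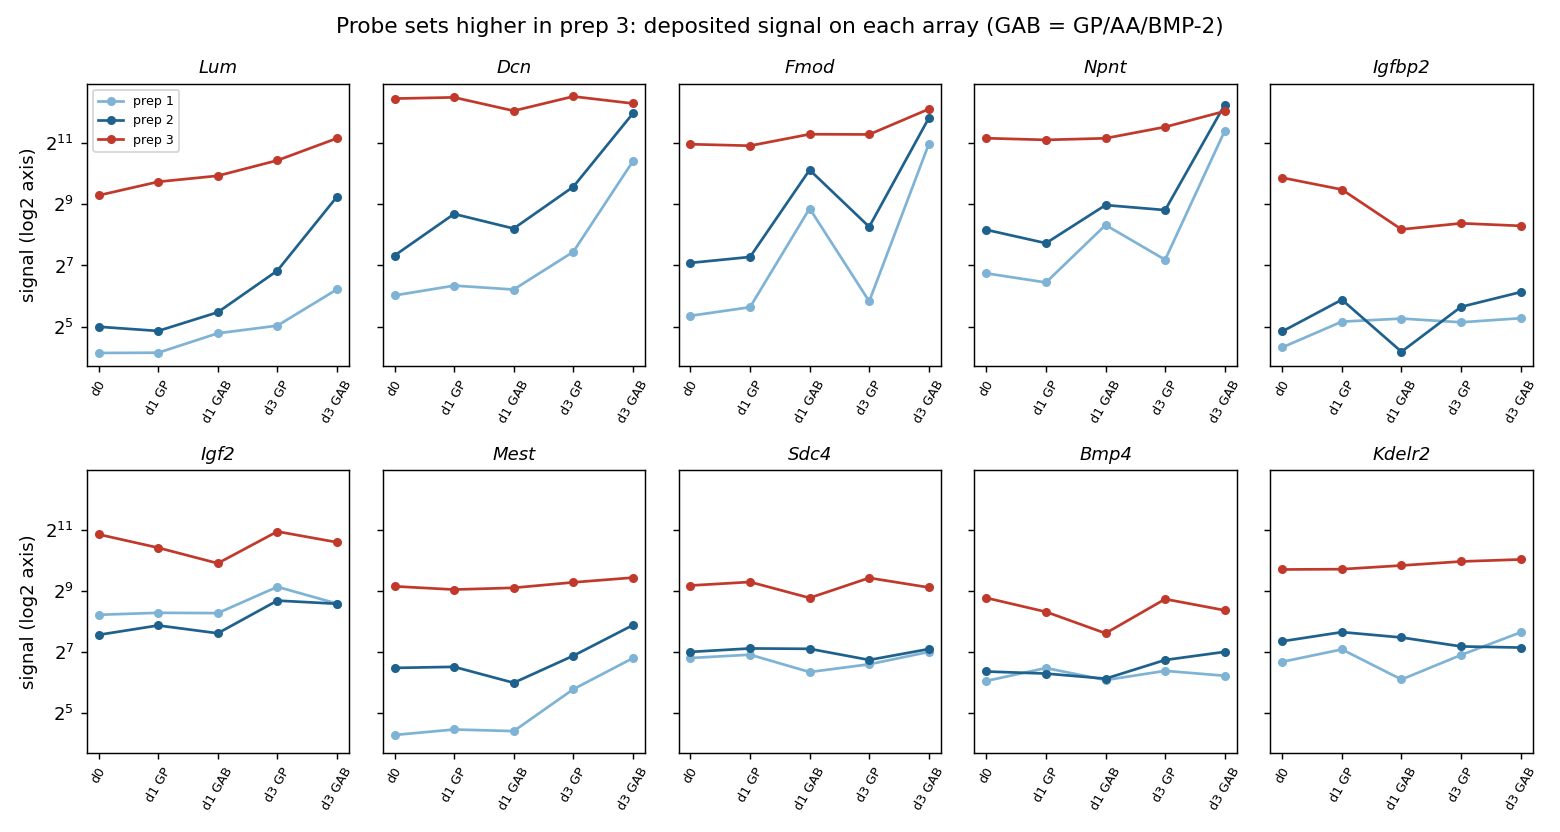
Deposited signal (log2 axis) of 10 genes higher in prep 3 on each of the 15 arrays, by culture (d0, day 0; GAB, GP/AA/BMP-2); lines join the arrays of a prep and are no time course. Lum and Dcn in prep 3 lie above every array of preps 1 and 2, and Fmod and Npnt come close to the other preps in the treated culture of day 3.

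The matrix genes did not all move together. Collagens Col15a1 (log2 difference 1.45, limma adjusted p = 0.000688), Col11a1 (1.29, 0.00818) and Col5a1 (0.90, 4.16e-05) rose, as did tenascin C (Tnc; 0.83, 0.00487). Versican (Vcan), a large proteoglycan of loose matrix, fell: its signals were 184.1 to 585.4 in prep 3 and 463.5 to 1434 elsewhere, and the log2 difference was -1.33 (SE 0.13, limma adjusted p = 7.73e-06). Col18a1 (-1.08, 0.00108) and fibronectin (Fn1; -0.45, 0.000901) fell too. Of the genes for collagen folding and crosslinking, 2 of 11 rose and 4 fell. With each array scaled to a common median, 3 rose and 1 fell. The chaperone Serpinh1 rose by 0.51 (limma adjusted p = 0.000119). The crosslinking enzyme Loxl1 fell by 0.78 (0.00335, or -0.02 and 0.477 with the floor at 78.9).

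Genes of insulin-like growth factor signalling were mostly higher. Of 10 tested, 6 rose and 1 fell, against 17.8% higher and 19.5% lower of all tested genes, with a median log2 difference of 0.58. These shares of all genes are the background for every gene list count given here. Igfbp2, a binding protein that holds the growth factors, read 936.8, 716.5, 290.3, 333.1 and 314.5 in prep 3 and 18.1 to 70 (median 37.1) elsewhere. No array overlapped, and the log2 difference was 3.66 (SE 0.32, limma adjusted p = 2.36e-06); the difference narrowed from 5.29 at day 0 to 2.60 in the treated culture of day 3. Igf2, the fetal growth factor, gave 961.9 to 1978.1 in prep 3 and 189.9 to 564.1 elsewhere (log2 difference 2.26, SE 0.16, limma adjusted p = 6.39e-07). Its receptor for clearance, Igf2r, rose by 0.65 (limma adjusted p = 8.26e-06), the adaptor Irs2 by 1.23 (0.0292) and Igfbp4 by 0.76 (0.0111). Igfbp6, which prefers Igf2, fell by 1.04 on the log2 scale (1.33e-05).

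Mest, an imprinted gene of mesoderm, read 530.3 to 694.9 in prep 3 and 19.6 to 236.5 (median 76.8) elsewhere, without overlap (log2 difference 3.25, SE 0.43, limma adjusted p = 7.44e-05). It also differed between the other preps: prep 2 was above prep 1 by 1.60 (limma adjusted p = 0.0183), and preps 1, 2 and 3 had means of 46.1, 120 and 594. Of the 9 imprinted genes tested, 3 rose and 2 fell, and with each array scaled to a common median 3 rose and 0 fell. Bmp4, a BMP ligand made by the cells themselves, gave 196.7 to 438.9 in prep 3 and 66.8 to 129.1 elsewhere (log2 difference 1.98, SE 0.16, limma adjusted p = 1.39e-06), and its second probe set gave 3.18. Syndecan 4 (Sdc4), a heparan sulfate proteoglycan of focal adhesions, read 581.3, 629.7, 438.8, 690.8 and 556.4 in prep 3 and 81.7 to 139.5 elsewhere, without overlap (log2 difference 2.28, SE 0.13, limma adjusted p = 1.34e-07).

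The other genes with the largest increases were Ptprd, a receptor phosphatase (log2 difference 3.48, 109.9 to 309.7 in prep 3 and 5.4 to 46.9 elsewhere), and Kdelr2, a retrieval receptor of the endoplasmic reticulum (2.72, 836.2 to 1049.4 and 69 to 202). They were followed by Rflnb (2.71), the scaffold Akap12 (2.52), the RNA-binding protein Hnrnpl (2.24) and the retinal-oxidising enzyme Aldh1a3 (2.03). The limma adjusted p of these 6 lay between 7.13e-07 and 0.000669. Aldh1a3 lost its call with the floor at 78.9 (0.28, limma adjusted p = 0.0717), Akap12 shrank to 0.80 and Ptprd to 1.48. A probe set of beta-actin, whose design allows other transcripts to bind, also rose (Actb, log2 difference 2.36, limma adjusted p = 3.12e-06), and a second one by 1.88, while the 3 antisense-target actin control probe sets were lower by 0.40 to 0.74 on the log2 scale, so the actin probe sets go opposite ways. Among genes dim in preps 1 and 2, the cell cycle inhibitor Cdkn1b gave 69.8 to 166.8 in prep 3 and 6.2 to 34.7 elsewhere, and the guidance receptor Robo1 46 to 78.1 and 4.5 to 41. The transcription factor Nfia gave 32.5 to 69 and 2.4 to 30.2, Efhd1 27.7 to 93.6 and 7 to 34.1, and Nudt5 29.8 to 53 and 7.6 to 35. The sizes for these 5 are uncertain, because the lower group averages under the signal filter, and each lost its call with the floor at 78.9.

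Of 24 amino acid synthesis and transport genes tested, 12 were higher and 0 lower, against 17.8% higher of all tested genes, with a median log2 difference of 0.43. The other 12 did not pass, among them the transporter chain Slc3a2 (0.05, limma adjusted p = 0.676) and the serine enzyme Phgdh (-0.39, 0.221). The transporter Slc7a5 averaged 1050 in prep 3 and 320 elsewhere (log2 difference 1.64, SE 0.14, limma adjusted p = 2.33e-06). Mthfd2, a folate enzyme of mitochondria, averaged 1660 and 653 (1.36, 3.29e-06), and Psat1, of serine synthesis, 2130 and 946 (1.20, 5.96e-06). Aldh18a1, of proline synthesis, averaged 178 and 74.1 (1.31, 3.1e-05), and asparagine synthetase (Asns) 1970 and 873 (1.15, 0.000343). The tRNA ligases Nars, Gars, Aars and Sars of the list also rose, Nars by 0.92, Gars by 0.62, Aars by 0.55 and Sars by 0.46 on the log2 scale. The list's median was 0.45 at day 0 and -0.14 in the treated culture of day 1, so it was not above 0 in every culture. ER chaperones showed no common direction in the values as deposited, with 4 of 23 higher and 5 lower. With each array scaled to a common median, 8 were higher and 1 lower.

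Ribosome assembly factors gave 10 of 25 higher and 0 lower, against 17.8% higher and 19.5% lower of all tested genes, among them Nop16 (log2 difference 1.01, limma adjusted p = 6.05e-06; 0.20, adjusted p = 0.196 for its other probe set) and Gar1 (0.65, 0.000713), and Myc, which drives many of them, rose by 0.58 (0.000638). Mitosis genes gave 10 of 26 higher and 1 lower: the spindle motors Kif11 (1.00, 2.13e-05) and Kifc1 (1.17, 0.00137) rose, and Mki67 fell by 0.33 (0.0369). DNA replication genes gave 6 of 26 higher and 1 lower, a share of higher genes near that of all genes, and 2 higher at the floor of 78.9. For genes of cell cycle arrest the count was 7 of 16 higher and 1 lower. Cdkn1a, the p21 inhibitor, averaged 1010 in prep 3 and 408 elsewhere (log2 difference 1.29, SE 0.10, limma adjusted p = 1.45e-06), though its second probe set gave 0.25. Gas2 rose by 1.48 (2.54e-05) and the cyclin Ccnd2 by 0.98 (0.000588), while Gas1 fell by 0.46 (0.0276). In the 5 cultures the mitosis median ran from 0.078 in GP at day 1 to 0.58 in the treated culture of day 1.

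Chemokine and acute-phase genes fell in prep 3 more uniformly than any other list of 5 or more tested genes. Of 19 tested, 18 were lower and 0 higher, with a median log2 difference of -1.70. With the floor at 78.9, 11 stayed lower and the median was -0.77. The signal filter left 19 of the 28 list genes on the array. It was taken over all arrays, so a gene dim in prep 3 could pass only by its signal in preps 1 and 2. Prep 3 means of Cxcl5 (5.42), Lcn2 (5.30), Il6 (6.78), Ccl5 (7.02), Saa3 (7.52) and Ccl9 (19.9) lay under the filter of 22.3. For these genes the lower sign followed from passing the filter, so they add no separate support to the count. The neutrophil chemokine Cxcl5 read 1, 3.9, 5.6, 3.7 and 12.9 in prep 3 and 99.1 to 1772.4 (median 389) elsewhere. No array overlapped, and the log2 difference was -6.43 (SE 0.67, limma adjusted p = 1.11e-05), or -2.43 at the higher floor. The acute-phase protein Saa3 read 3.7, 8.4, 22.2, 1.1 and 2.2 in prep 3 and 3.4 to 3706.7 (median 317) elsewhere (log2 difference -5.76, SE 1.11, limma adjusted p = 0.00136); the ranges overlap through the day 3 treated array of prep 2, and at the higher floor it was -2.44 and lost its call (adjusted p = 0.122). Lcn2, which binds bacterial iron carriers, read 5, 7.2, 6.6, 1.5 and 6.2 and elsewhere 1.1 to 3726.8 (log2 difference -5.82, SE 1.13, limma adjusted p = 0.00136), and at the higher floor -2.48 without a call (adjusted p = 0.102). A second, dimmer Lcn2 probe set gave -0.55 (0.014). The lowest value of the first lay in the treated culture of day 3 of prep 2, so the ranges overlap.

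The monocyte chemokine Ccl2 read 72.2, 40.9, 13.2, 46.3 and 48.2 in prep 3 and 79.9 to 435.1 (median 237) elsewhere, without overlap (log2 difference -2.49, SE 0.41, limma adjusted p = 0.000411; -1.47 at the higher floor). Il6 averaged 6.78 in prep 3 and 97.5 elsewhere (-3.03, SE 0.73, limma adjusted p = 0.00557), and the call was lost at the higher floor (-0.49, 0.415) and against prep 2 alone (-1.70, 0.0962). Haptoglobin (Hp), a plasma haemoglobin binder, read 49.9 to 66.3 and 147.1 to 761.8 (-2.31, SE 0.36, limma adjusted p = 0.000262). The fall included regulators: the NF-kB inhibitor Nfkbia (-1.34, 7.73e-06), itself an NF-kB target, and the subunits Relb (-0.66, 0.00232) and Nfkb2 (-0.44, 0.00238). Adhesion and signalling proteins fell too, namely Vcam1 (-1.18, 0.000119), Cx3cl1 (-1.19, 2.46e-06), Cxcl12 (-1.53, 0.00177) and Ptgs2 (-1.67, 2.54e-05; -0.43 and 0.311 at the higher floor). Ccl5 fell too (0.000777), from a mean of 92 to 7.02, which is under the signal filter, so its size is uncertain.

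This list also separated preps 1 and 2. Of the 19 genes, 8 were lower in prep 2 than in prep 1 and 0 higher, with a median log2 difference of -0.56, against 0.765% of all probe sets called between those preps. Means of Cxcl5 were 1120 in prep 1, 191 in prep 2 and 5.42 in prep 3, and prep 2 against prep 1 gave -2.55 (limma adjusted p = 0.0159). Saa3 averaged 1880, 136 and 7.52 (prep 2 against prep 1 -4.47, 0.00746), Lcn2 1960, 175 and 5.30 (-4.14, 0.0241), and Il6 167, 28.5 and 6.78 (-2.65, 0.0302). The gelatinase Mmp9, which is not on the list, averaged 224, 61.6 and 15.1 (-2.28, 0.0223). These 5 genes were ordered prep 1, prep 2, prep 3 from high to low. In the other direction, Ccn3, a secreted matricellular protein, averaged 124, 721 and 1980, with prep 2 above prep 1 by 2.35 (limma adjusted p = 0.0159). Bok, a BCL-2 family member, averaged 289, 441 and 830 (prep 2 against prep 1 0.66, 0.0473). Cdh13 and Hopx rose from prep 1 to prep 2 by 1.83 (0.0432) and 0.73 (0.035), and prep 3 against both did not pass for either (0.83, adjusted p = 0.226, and 0.25, 0.36). Each of these prep 2 against prep 1 calls was lost without the signal filter. Prep 2 against prep 1 shares arrays with the comparisons above and is no independent support for them.

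**Figure D3:**
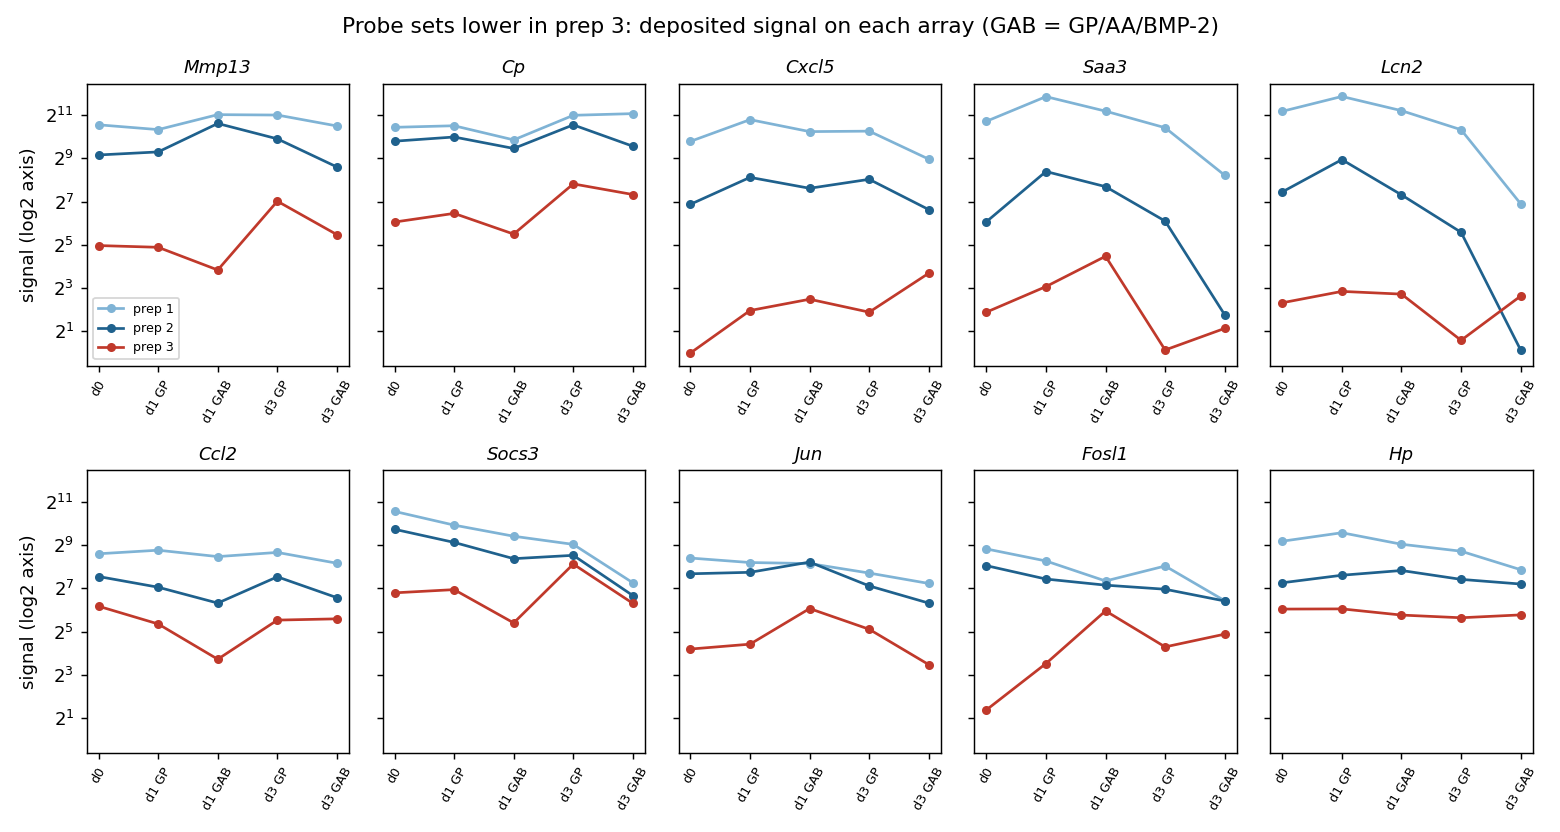
Deposited signal (log2 axis) of 10 genes lower in prep 3 on each of the 15 arrays, by culture; lines join the arrays of a prep and are no time course. Mmp13, Cp and Cxcl5 of prep 3 lie below every array of preps 1 and 2, and for Saa3 and Lcn2 prep 2 lies between prep 1 and prep 3 in the first 4 cultures.

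The 250 bases before their RefSeq start sites (GRCm38.p6) were searched on both strands, and 11 of the 18 lower genes had an entry. The NF-kB consensus was found in 5 of the 11 (45.5%), against 10.6% of 4574 tested genes with an entry. The C/EBP-type motif TTNNGNAA was found in 7 (63.6%, against 32.6%), the AP-1 motif TGANTCA in 3 (27.3%, against 5.79%) and the STAT-type motif TTCNNNGAA in 1 (9.09%, against 6.89%). Over all 27025 genes with an entry the shares of the 4 motifs, in the same order, were 8.23%, 40.3%, 7.82% and 8.13%. Since 18 of the 19 tested genes of the list were lower, these shares describe the list and not prep 3, and they were not tested. A match is a description of the letters and not a bound site. Shown 5' to 3' are 2 windows with the NF-kB consensus in capitals, of Il6 (chr5:30012864-30013113, plus strand) and Nfkbia (chr12:55492648-55492897, minus strand), and 1 with the 4 TTNNGNAA matches in capitals, of Saa3 (chr7:46715677-46715926, minus strand).
Il6: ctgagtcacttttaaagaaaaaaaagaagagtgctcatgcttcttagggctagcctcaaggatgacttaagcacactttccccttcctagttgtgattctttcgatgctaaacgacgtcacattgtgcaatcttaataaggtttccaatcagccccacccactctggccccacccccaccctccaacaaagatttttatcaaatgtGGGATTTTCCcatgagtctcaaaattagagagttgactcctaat
Nfkbia: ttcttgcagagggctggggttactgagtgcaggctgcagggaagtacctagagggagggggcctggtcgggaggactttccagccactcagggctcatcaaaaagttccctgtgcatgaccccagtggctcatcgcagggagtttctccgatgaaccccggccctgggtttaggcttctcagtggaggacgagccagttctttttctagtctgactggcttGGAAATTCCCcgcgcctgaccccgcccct
Saa3: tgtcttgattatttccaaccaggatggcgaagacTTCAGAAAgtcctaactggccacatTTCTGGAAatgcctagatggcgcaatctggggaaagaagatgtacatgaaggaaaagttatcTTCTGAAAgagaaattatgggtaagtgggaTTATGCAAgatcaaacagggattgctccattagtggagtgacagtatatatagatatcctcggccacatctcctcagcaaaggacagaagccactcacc

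Of the C/EBP factors, which act on acute-phase genes, Cebpb and Cebpd were lower. A link of these factors, or of the AP-1 subunits below, to the lower genes above was not tested. Cebpb averaged 466 in prep 3 and 1840 elsewhere (log2 difference -1.89, SE 0.21, limma adjusted p = 1.7e-05) and Cebpd 356 and 1550 (-1.95, SE 0.27, 0.00012). Cebpa, a related factor, rose by 0.63 (0.000495). AP-1 subunits fell as well. Jun read 18.3, 21.4, 67, 34.5 and 11.1 in prep 3 and 79.8 to 338.4 (median 212) elsewhere, without overlap (-3.02, SE 0.24, limma adjusted p = 1.59e-06; -1.37 at the higher floor). Fosl1 read 2.6 to 62.2 and 85.4 to 453.3 (-3.46, SE 0.58, 0.000451; -1.19 at the higher floor), and Junb fell by 1.76 (0.00133) and Jund by 0.54 (0.000111). Over the immediate early and serum response list, 8 of 23 genes were lower and 3 higher. Klf4 rose by 0.78 (0.00666). The list's median was -0.85 at day 0 and 0.095 in the treated culture of day 3.

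Of the 14 matrix proteases and inhibitors tested, 6 were lower and 3 higher. With each array scaled to a common median, 3 were lower and 3 higher, so the count depends on the scaling. Mmp13, the collagenase of bone turnover, read 31.3, 29.6, 14.3, 129.7 and 44.4 in prep 3 and 388.7 to 2080.5 (median 1370) elsewhere. No array overlapped, and the log2 difference was -4.86 (SE 0.43, limma adjusted p = 2.86e-06). The inhibitor Timp1 averaged 1760 and 4710 (-1.30, 0.000899), while Mmp14 rose by 0.43 (0.00315). Ceruloplasmin (Cp), a copper-carrying acute-phase protein, read 45.2 to 225.9 and 703.9 to 2149.7 (-3.59, SE 0.24, limma adjusted p = 3.92e-07). The oncostatin M receptor Osmr fell by 2.03 (1.71e-06), the interleukin 13 receptor Il13ra1 by 3.05 (1.04e-05) and the feedback inhibitor Socs3 by 2.15 (0.000725), whose second probe set gave -1.86.

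Further decreases were found for Phlda1 (-2.77, limma adjusted p = 0.000111), the protease inhibitor Slpi (-2.30, 1.05e-05), the TGF-beta induced matrix protein Tgfbi (-2.03, 6.39e-07) and the small GTPases Rhou (-2.24, 8.04e-06) and Rac3 (-2.03, 2.21e-06). At the higher floor Rhou was -1.11 and Rac3 -0.63. Tnfrsf9, a costimulatory receptor, read 0.4 to 3.5 in prep 3 and 18.8 to 194.3 elsewhere, and embigin (Emb), a transporter chaperone, 5.4 to 27.3 and 87.8 to 291.4. These 2 and Gm2022, whose probe set can bind related transcripts, had prep 3 means under the signal filter, so their sizes are uncertain; Tnfrsf9 and Gm2022 lost their calls at the higher floor. Interferon and antigen presentation genes were lower in 7 of 23 cases and higher in 0, against 19.5% lower and 17.8% higher of all tested genes. With each array scaled to a common median, 3 were lower and 1 higher, so the count depends on the scaling. Those lower without that scaling included Gbp2 (-1.44, 0.000952) and Ifi204 (-3.06, 1.05e-05, and -0.52 and 0.0792 at the higher floor), whose probe set can bind related interferon genes.

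Metallothioneins, which bind zinc and copper, fell: Mt1 averaged 560 in prep 3 and 1620 elsewhere (log2 difference -1.64, limma adjusted p = 4.96e-05) and Mt2 938 and 3410 (-1.81, 0.000363). Of 29 oxidative stress and detoxification genes, 11 were lower and 5 higher. Haem oxygenase (Hmox1) fell by 0.78 (5.91e-06), while superoxide dismutase 1 (Sod1) averaged 1720 and 570 and rose by 1.61 (1.42e-06). Lysosome genes were lower in 12 of 28 cases and higher in 4, oxidative phosphorylation genes lower in 12 of 35 and higher in 3, and cytosolic ribosomal proteins lower in 6 of 21 and higher in 0. With median scaling these became 4 lower and 7 higher for lysosome, 1 and 7 for oxidative phosphorylation, and 1 and 3 for ribosomal proteins, so their direction depends on the scaling. For glycolysis and hypoxia genes, 6 of 20 were lower and 0 higher, and with median scaling 3 were lower and 4 higher. Chemokines stayed at 16 lower and 0 higher under that scaling, and amino acid genes at 15 higher and 0 lower.

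Several other groups held members that went opposite ways in the values as deposited, though for most of them the split depended on the scaling. Among heat shock genes 5 of 23 were higher (21.7%, against 17.8% of all genes) and 3 lower (13%, against 19.5%). With median scaling 11 were higher and 1 lower. The chaperone Hsph1 averaged 740 in prep 3 and 344 elsewhere (log2 difference 1.11, limma adjusted p = 1.55e-06) and the mitochondrial chaperone Hspa9 908 and 457 (0.97, 3.23e-05). Dnajb6 fell by 0.51 (0.000187) by 1 probe set and not by its other (0.02, 0.923). In the endoplasmic reticulum list the disulfide isomerase Pdia6 fell by 0.81 (0.000192; its other probe sets gave -0.64 and -0.10, the second not called), and the transcription factor Atf5 rose by 1.38 (0.00444). Among actin and smooth muscle genes 9 of 24 were higher and 4 lower, and with median scaling 12 were higher and 3 lower. The brightest probe set of the adaptor Pdlim1 rose by 0.59 (0.000421) and that of its relative Pdlim7 fell by 0.93 (6.23e-05), but their other probe sets were not called (0.01 for Pdlim1, -0.29 and -0.09 for Pdlim7). The actin-binding profilin Pfn1 fell by 0.81 (8.82e-05). The contractile marker Acta2 did not pass (0.20, adjusted p = 0.144).

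Metabolic genes gave further single changes. Hexokinase 2 (Hk2), which starts glycolysis, averaged 190 in prep 3 and 362 elsewhere (log2 difference -0.90, limma adjusted p = 0.00127), and Pfkl fell by 0.72 (0.00295). The lysosomal proteases Ctsd (-0.61, 0.000505) and Ctsa (-0.56, 0.000248) fell, while the acid lipase Lipa rose by 1.01 (0.000152). Of the 20 cholesterol and fatty acid synthesis genes, 3 were higher and 5 lower, and with median scaling 5 were higher and 0 lower. The desaturase Scd2 rose by 0.53 (0.000237), though its other probe set was not called (0.19, 0.151). That list's median went from -0.73 at day 0 to 0.45 in the treated culture of day 3. Of 30 proteasome genes, 3 were higher and 3 lower, and with median scaling 8 were higher and 0 lower.

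**Figure D4:**
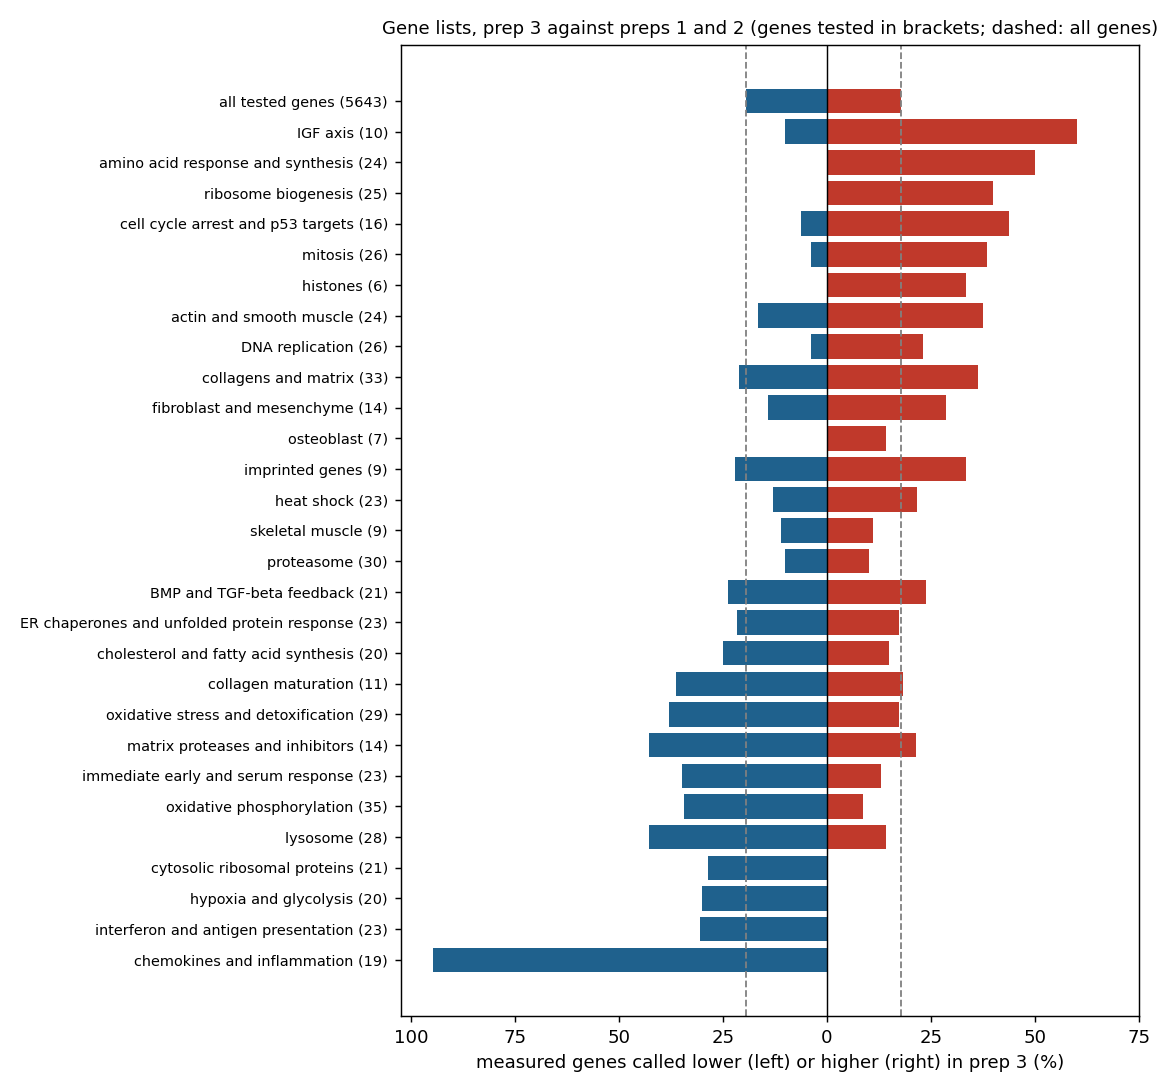
For each list with 5 or more tested genes, the percent of its genes called higher (red, right) or lower (blue, left) in prep 3; dashed lines mark the 17.8% higher and 19.5% lower of all 5643 tested genes. Chemokines and inflammation reach furthest left, with 18 of 19 genes, and insulin-like growth factor genes furthest right, with 6 of 10.

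Of 7 osteoblast markers tested, 1 rose (Omd, above) and 0 fell. The count depended on the settings, with 4 higher after quantile normalization, 3 after median scaling and 0 at the higher floor. The summed signal of all 11 markers on the array was 19900 to 23100 in prep 3 and 16700 to 27800 elsewhere. Col1a1, Col1a2 and Sparc, with prep 3 means of 9390, 8840 and 3160, made up most of that sum. Of the markers not tested, Pth1r averaged 99 in prep 3 and 24.1 elsewhere, while Ibsp, Dmp1 and Phex averaged lower in prep 3. The main Col1a1 probe set, for the chief bone collagen, averaged 9390 and 9090 (log2 difference 0.06, limma adjusted p = 0.704), against 2.29 (1.75e-09) for a second one, and alkaline phosphatase (Alpl) did not pass (0.25, 0.572). Neither did Dlx5 (0.24, 0.161), Tnfrsf11b (0.35, 0.133), Smad6 (-0.04, 0.892), Id1 (-0.71, 0.0909) or Id2 (0.21, 0.707). BMP-responsive genes that fell were Msx2 (-0.75, 0.00254), Id3 (-0.66, 0.0238) and Smad7 (-0.38, 0.0431). Id3 and Smad7 lost their calls under median scaling (adjusted p = 0.108 and 0.322) and with several single arrays left out. Msx2 was -0.11 at the higher floor (adjusted p = 0.312). Over the 21 BMP and TGF-beta genes tested, 5 rose and 5 fell (23.8% each, against 17.8% higher and 19.5% lower of all genes). With median scaling 6 rose and 2 fell. The signal carrier Smad1 (0.80, limma adjusted p = 9.81e-05) and the ligand Tgfb2 (1.26, 0.00253; 0.16 and 0.116 at the higher floor) were among those that rose.

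Markers of other cell types were looked at for the same arrays. The summed adipocyte markers were 1310 to 1530 in prep 3 and 2110 to 6240 elsewhere, with 3 of 4 tested lower, which were Cebpb, Cebpd and Plin2. The fourth, Cebpa, was higher (log2 difference 0.63, limma adjusted p = 0.000495). Cebpb (466 in prep 3 against 1840) and Cebpd (356 against 1550) were the brightest of these markers in preps 1 and 2. Of the other fat markers, Pparg, Adipoq and Lpl averaged under 9 in both groups. Fabp4 averaged 8.18 in prep 3 and 22.6 elsewhere, and Slc2a4 18.7 and 12.7, and neither was bright enough to be tested. Macrophage and osteoclast markers summed to 820 to 1070 and 987 to 1310; of the 3 tested, Cd14 fell by 0.93 (limma adjusted p = 0.000104) and the protease Ctsk rose by 0.57 (0.00181), and Adgre1 and Lyz2 averaged at most 11.6. Endothelial markers summed to 190 to 293 and 275 to 386, epithelial to 117 to 149 and 144 to 244, chondrocyte to 129 to 193 and 163 to 283, skeletal muscle to 757 to 1230 and 884 to 1620, and neural to 623 to 827 and 747 to 1230. Fibroblast and mesenchyme markers summed to 14700 to 19500 and 10400 to 17700, with 4 of 14 higher, among them Lum and Dcn, and 2 lower. The part of other cells in the differences was not tested.

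The response to ascorbic acid and BMP-2 was compared between the preps with an interaction term. The day 0 arrays also enter that term as untreated arrays, so it is not purely treated against GP of the same day. The response differed for 28 probe sets (0.376%), 10 with a higher and 18 with a lower treated effect in prep 3 (limma adjusted p under 0.05). Fmod had the largest such difference of the named genes: treated over GP was 3.23 and 2.85 on the log2 scale at day 1 and 5.14 and 3.56 at day 3 in preps 1 and 2, and 0.38 and 0.83 in prep 3. The interaction was -3.11 (SE 0.32, limma adjusted p = 0.00203), and it lost its call without the day 3 GP or the day 3 treated array of prep 3 (-2.81, adjusted p = 0.0622 and 0.0635). Npnt followed the same pattern, with treated effects of 4.22 and 3.45 at day 3 in preps 1 and 2 and 0.52 in prep 3 (interaction -2.20, 0.0319; -1.35, 0.202 and 0.201 without those arrays). Nupr1, a stress-response regulator, was 1.92 lower in its treated effect (limma adjusted p = 0.00203; -1.51, 0.0504 without the day 1 treated array of prep 3). The lectin-like Ptx3 gave -1.65 (0.0191; -1.10, 0.203 without that array) and Pdzk1ip1 -2.28 (0.0476), which was -0.05 at the higher floor (0.926) and lost its call in 13 of 15 fits without 1 array. The fatty acid enzymes Elovl6 (1.40, 0.0377) and Scd1 (1.05, 0.0308), and Nt5dc2 (1.19, 0.0319), Wbp11 (0.95, 0.0377) and Ifi204 (2.05, 0.0191), had higher treated effects in prep 3. Ifi204 turned to -0.84 at the higher floor. With 1 array left out, Wbp11 lost its call in 13 of 15 fits, Elovl6 in 11, Npnt and Nt5dc2 in 10, Scd1 in 9 and Ifi204 in 6.

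The count of 28 was not stable. Leaving out 1 array of prep 1 gave 4 (day 0), 12 (day 1 GP), 13 (day 1 treated), 2 (day 3 GP) and 26 (day 3 treated). For prep 2 the day 1 GP array gave 9 and the day 3 GP array 5, and for prep 3 the 5 arrays in order of culture gave 11, 18, 11, 3 and 3. The BMP targets did not pass this test. Id2 had treated effects of 4.46 and 4.41 at day 3 in preps 1 and 2 and 0.56 in prep 3 (interaction over both days -2.33, limma adjusted p = 0.0776). Id1 had 2.16, 2.33 and -0.67 at day 3 (-1.68, 0.114), and Id3 3.85, 3.97 and 1.95 (-1.26, 0.0748). Smad6 had 2.23, 1.84 and 0.67 (-0.74, 0.259). Alpl went the other way, with 3.44, 4.76 and 5.54 at day 3 (1.81, 0.186). A p that misses the threshold does not show that the preps responded alike.

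**Figure D5:**
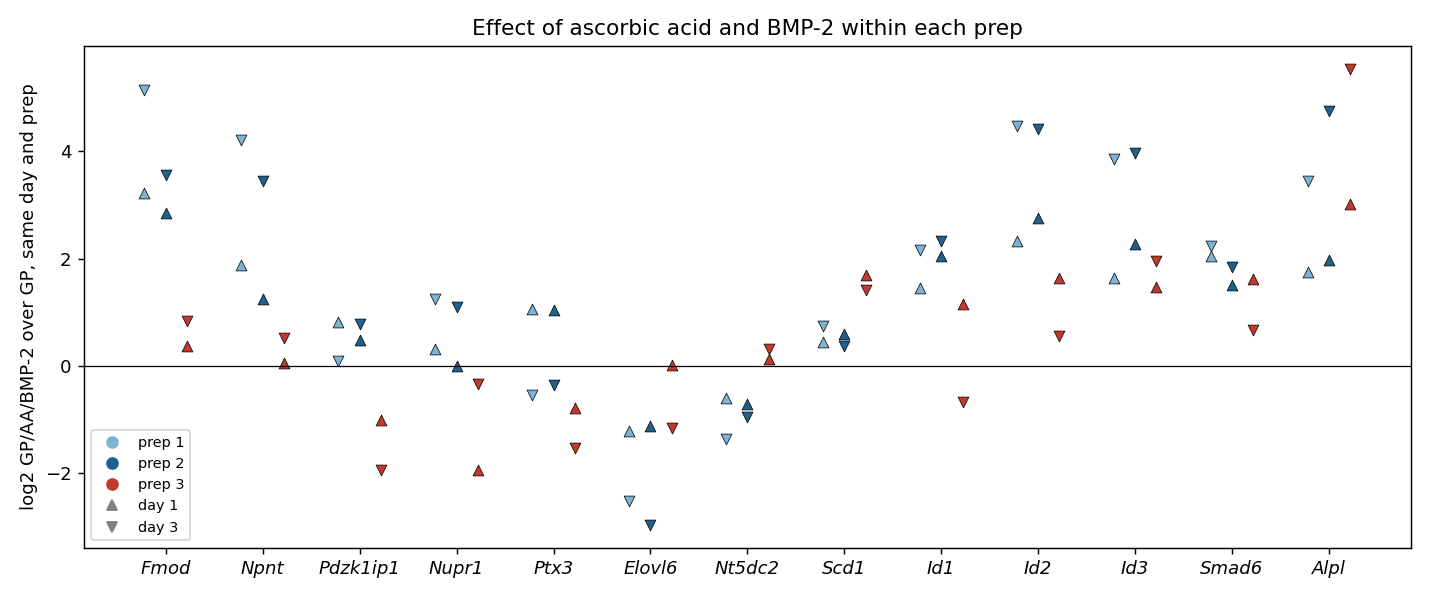
Log2 ratio of the treated over the GP culture of the same day and prep for 13 genes, with 1 point for each prep and day (upward triangles day 1, downward day 3; n = 1 per point). For Fmod, Npnt and Id2 both prep 3 points lie below all 4 points of preps 1 and 2.

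The difference of day 3 from the earlier days differed between the preps for 20 probe sets (0.268%), 11 higher and 9 lower in prep 3. The earlier days are day 1 and also day 0, so the term is not purely day 3 against day 1. Socs3 fell with time in preps 1 and 2, from 972.5 and 558.7 at day 1 to 524.4 and 369.3 at day 3 with GP, while in prep 3 it went from 123 to 278.8 (interaction 2.54, limma adjusted p = 0.00124). The interleukin 4 receptor Il4ra (2.21, 0.00372), Mmp13 (2.09, 0.0309), Phlda1 (1.61, 0.0397) and annexin A8 (Anxa8; 1.64, 0.0309) had the same direction. The receptor Fgfr2 (-1.55, 0.0119), Lmo7 (-1.46, 0.00925) and Rfk (-1.43, 0.00372) went the other way, as did Fahd1 (-2.49, 0.00372) and Tubg2 (-2.11, 0.0397), whose probe sets can bind related transcripts. Of these 10, all but Socs3 lost the call in a fit without a mean trend.

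Probe sets of 1 gene did not always move together. Of 954 genes with several tested probe sets, 194 had 2 or more called, 158 of them the same way and 36 (18.6%) opposite ways. A second Col1a1 probe set averaged 3220 in prep 3 and 664 elsewhere, a log2 difference of 2.29 (SE 0.09, limma adjusted p = 1.75e-09), where the brighter one gave 0.06. For the proteasome gene Psmd11 the brightest probe set rose by 0.64 and the others gave -0.41 and -0.22. The 65 genes called higher and the 93 called lower by 2 or more probe sets, with none called the other way, do not rest on a single probe set; Bmp4, Smad1 and Col5a1 are among the first and Socs3, Slpi, Rhou and Nfkbia among the second.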

How the data were processed

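Each of the 15 arrays carried total RNA of one MC3T3 culture. The deposited values are 1 linear intensity (signal) per probe set and array; the signal algorithm and any filter are not given in the sources used here. The deposited intensity values had the same trimmed mean on every array, 150.1 after leaving out the brightest and dimmest probe sets, so some scaling had been done. They were used without further scaling.

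Signals below 2.8, the 10th percentile of all values, were raised to that floor and log2 transformed. A probe set was tested when its geometric mean signal over the 15 arrays reached 22.3, the 40th percentile of 12422 non-control probe sets; 7453 were tested. GEO's platform annotation gave 10833 non-control probe sets 1 gene symbol, 396 several and 1193 none, and 10817 of the first matched RefSeq. A gene was represented by its probe set with the highest mean signal.

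The fits used limma 3.58.1 in R 4.3.3 with a mean trend: log2 signal against prep, with the 5 cultures as blocks. Same-numbered arrays across the preps share day and additions, which is where the pairing comes from. Benjamini-Hochberg adjustment ran over all 7453 probe sets, with a threshold of 0.05. Treated effect and day differences between preps were interaction terms in 1 model. That model had no separate prep 3 term for day 0, so the day 0 arrays counted as untreated and as not day 3. Array measures were compared by an exact two-sided permutation of the prep labels within cultures (243 arrangements). The limma fits for prep 3, for prep 2 against prep 1 and for the treated interaction were tested on simulated data.

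Genes named are the 15 called each way with the largest change whose prep 3 signal lay outside both other preps on the same side in all 5 cultures and whose lower side averaged at least 22.3; the same for 5 each way whose lower side was under 22.3; 5 each way for prep 2 against prep 1 and for each interaction; some of the up to 4 per gene list with the smallest p; and 15 bone and BMP genes, of which 10 were tested. Other genes named are members of the gene lists, or were chosen after their values were seen. The comparison, the lists and the rule were chosen with earlier results of these data known. Alternatives were 3 other scalings, 2 other floors, 2 other filters, 3 other fit settings, other designs, and leaving out each array or culture.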

Additional observations from a re-analysis of the deposited data

Results flagged for a closer look

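One array measure stood far from the others of its group: the beta-actin 3' to 5' ratio of the day 3 GP array of prep 3 was 2.11, against 1.21 to 1.34 on the other prep 3 arrays. This check flags about 1 in 20 groups by chance, and it was 1 of 47 made. Without the day 3 GP cultures of all preps the difference of prep 3 was 0.167 in place of 0.323 (exact permutation p adjusted over 3 ratios 0.037). For pyruvate carboxylase it was then 2.75 in place of 4.25 (exact permutation, adjusted 0.037), and for Gapdh 0.0402 in place of 0.0929 (adjusted 0.32).

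For 10 named genes the treated effect in prep 3 differed from that in preps 1 and 2 (interaction term in limma). It was lower for Fmod (-3.11), Pdzk1ip1 (-2.28), Npnt (-2.20), Nupr1 (-1.92) and Ptx3 (-1.65). It was higher for Ifi204 (2.05), Elovl6 (1.40), Nt5dc2 (1.19), Scd1 (1.05) and Wbp11 (0.95). Pdzk1ip1 was -0.05 at the floor of 78.9. With 1 array left out, Wbp11 and Pdzk1ip1 lost the call in 13 of 15 fits, Elovl6 in 11, Npnt and Nt5dc2 in 10, Scd1 in 9, Ifi204 in 6, Fmod and Ptx3 in 2 and Nupr1 in 1.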

How the results depend on the processing

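The comparison of prep 3 with preps 1 and 2 gave 1925 to 2899 calls under every alternative run with all arrays, 2212 to 2793 with 1 array left out and 2130 to 2359 with 1 culture left out; without the replicate block (the pairing of arrays by culture) it gave 2096. Of the 40 genes named for the size of their change by the rule, 30 kept their call in every setting run for them (12 to 14) and all 20 leave-outs, and 10 lost it at the floor of 78.9; among the 30 of them with a lower side above the signal filter, 28 kept it. Prep 2 against prep 1 gave 4 calls at that floor, 0 without the signal filter (1376 at an unadjusted p under 0.05 in limma), 2 without a mean trend, 204 with array weights and 109 with only the 10 arrays of those preps. The treated interaction gave 7 with median scaling, 1 without the signal filter, 3 without a mean trend and 7 without a term for day 3 in prep 3, and 2 to 26 with 1 array left out (2, 3, 3, 4, 5, 9, 11, 11, 12, 13 and 18 where it moved most). The day interaction gave 4 without the signal filter and 1 without a mean trend. The treated interaction of Ifi204 reversed to -0.84 at the floor of 78.9. The cause of these changes was not tested. Dim genes have only rough sizes, because values near the floor carry no order. Leaving out the day 3 GP array of prep 3 and asking for several probe sets per gene were chosen after seeing the data.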
